A study of Mus musculus with 5 samples.

Results

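The Bcl-2 family sets whether a cell keeps its mitochondria intact, and 10 of its genes were examined in natural killer T (NKT) cells sorted from the thymus of mice with and without interleukin-15 (IL-15). The members were chosen by role, 6 that oppose apoptosis (Bcl2, Bcl2l1, Bcl2l2, Mcl1, Bcl2a1c and Bcl2a1d) and 4 that promote it (Bcl2l11, Bak1, Bax and Bid), out of 20022 genes with a named probe. Every probe whose RefSeq transcript maps to a member was read. This gave 13 probes, 1 for each of 7 genes and 2 each for Bcl2l1, Bcl2l2 and Mcl1.

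The IL15ko group comprised 2 arrays of NKT cells from mice of genotype IL15-/- on a C57BL/6 background, and the wild-type group 3 arrays of NKT cells from C57BL/6 mice. Each sample was made from 10 pooled thymi, enriched for T cells and sorted for CD3e and CD1d tetramer binding, and each was hybridised to 1 Agilent 1-colour array. NKT cells are a lineage of T cells whose receptors bind lipid antigens held by CD1d. Every cell of the IL15ko mice lacks the cytokine, so the comparison cannot separate a direct effect of IL-15 on NKT cells from one through other cells. The labels give neither age nor sex, and do not say that replicates came from separate pools, so the p-values rest on a spread between arrays that may be technical.

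Between 44.6% and 49.6% of probes were well above background on the wild-type arrays, 45.2% on IL15ko 1 and 33.9% on IL15ko 2, the dimmest array. Wild-type 1 and 2 lay closer together (robust SD of their log2 difference 0.155) than wild-type 1 and 3 (0.364) or the IL15ko pair (0.386). All 6 T-cell markers, Cd3e and Lck among them, were well above background on all 5 arrays. Their summed signal was 92.4 to 102 times the array's 75th percentile in IL15ko and 98.6 to 103 times in wild-type. Il15 itself, the gene deleted in IL15ko, stayed near background in all 5 samples and so checks nothing about the labels.

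In outline, the family works through binding between its own members. Bcl2, Bcl2l1 (Bcl-xL), Bcl2l2 (Bcl-w), Mcl1 and the A1 proteins hold the effectors Bax and Bak1 in check. BH3-only proteins such as Bcl2l11 (Bim) and Bid relieve that check or activate the effectors, which then open the outer mitochondrial membrane and release cytochrome c. In lymphocytes the level of Bcl2 is known to follow survival cytokines that signal through the common gamma chain, IL-15 among them.

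Bcl2 was the member that differed most between the groups, and it was lower in IL15ko. Bak1, one of the membrane-permeabilising effectors, was the only other member to pass the test, and it was higher in IL15ko. The remaining 8 members, 5 anti-apoptotic and 3 pro-apoptotic, did not pass. Values are log2 signals relative to the array's 75th percentile, taken over probes that cleared the background on every array, so 0 is that percentile. The test was limma's, over 11998 genes with 1 probe each, with a Benjamini-Hochberg adjusted p under 0.05. It called 7.31% of all genes tested, 3.73% higher and 3.58% lower in IL15ko, against 1 of 10 members higher and 1 of 10 lower. With so few members, these counts are not a result about the family.

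**Figure D1:**
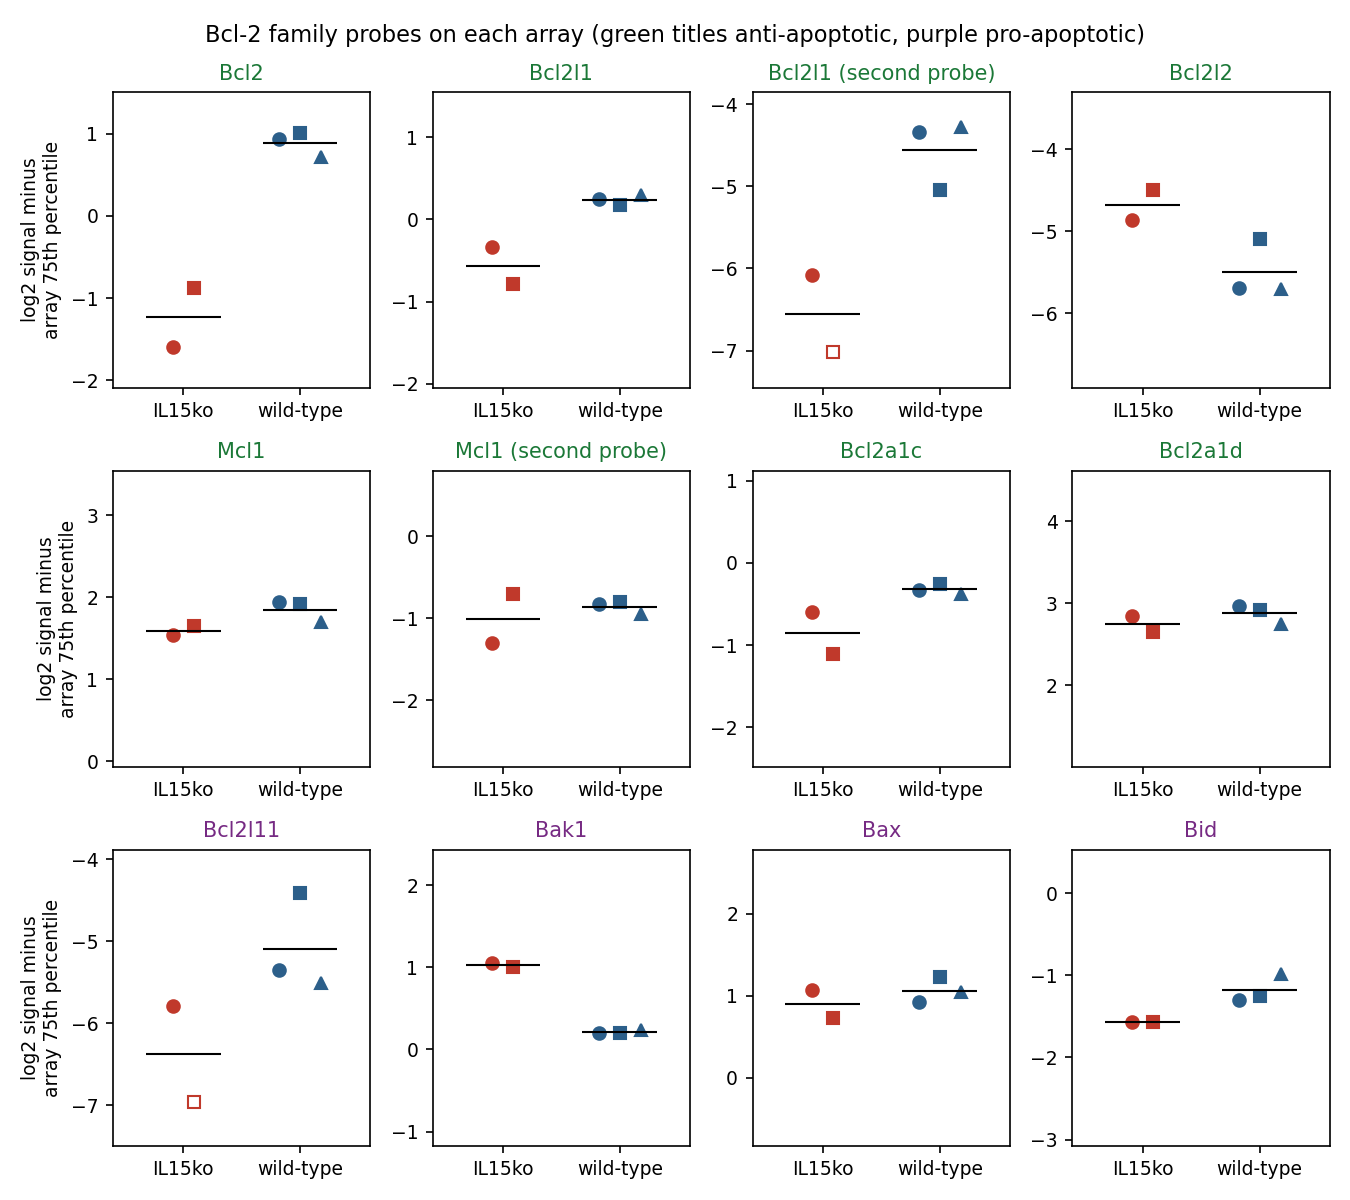
Log2 signal minus the array's 75th percentile (vertical axes, each spanning the same range) of the 12 member probes that were well above background on at least 2 arrays, with IL15ko arrays in red at the left and wild-type arrays in blue at the right of each panel. Circles, squares and triangles are replicates 1, 2 and 3, bars are group means, and open symbols are spots not well above background. The Bcl2 arrays of the groups are separated by 1.59 and those of Bak1 by 0.77.

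The anti-apoptotic genes come first. Bcl2 is the founding gene of the family and codes for a protein anchored in the outer mitochondrial membrane. It was read by 1 probe matched through 1 RefSeq transcript, so other transcripts of the gene may not be covered. Its log2 signal was -1.59 and -0.87 on IL15ko 1 and 2, and 0.94, 1.01 and 0.71 on wild-type 1, 2 and 3. Both IL15ko arrays lay below every wild-type array, and the spread between the IL15ko arrays was the wider one. Group means were -1.23 ± 0.51 in IL15ko (SD, n = 2) and 0.89 ± 0.15 in wild-type (SD, n = 3). Bcl2 thus fell by 2.12 ± 0.25 (SE) on the log2 scale, which is 4.34-fold (95% confidence interval 2.81 to 6.71, limma adjusted p = 0.0176). In bulk RNA, fewer cells with the transcript and less transcript per cell cannot be told apart. A difference of this size or larger was seen in 1.04% of the genes tested. The call was lost without wild-type 1 (adjusted p = 0.0877) or wild-type 2 (adjusted p = 0.0742), while the difference was -1.76 without IL15ko 1 and -2.48 without IL15ko 2.

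Bcl2l1 codes for Bcl-xL, which protects double-positive thymocytes. Its brighter probe read -0.34 and -0.79 on IL15ko 1 and 2, and 0.25, 0.18 and 0.29 on the wild-type arrays. The groups did not overlap, and here IL15ko 2 was the lower of the IL15ko pair, the reverse of Bcl2. The log2 difference was -0.80 ± 0.18 (SE), with an adjusted p of 0.0592, so Bcl2l1 missed the threshold. It was called in 3 of 16 alternative settings, 1 of which averages its probes. The second probe read -6.08 and -7.02 in IL15ko, and -4.34, -5.04 and -4.28 in wild-type. It is far dimmer, at 20.0 and 3.4 intensity units on IL15ko 1 and 2, and was not well above background on IL15ko 2. Its difference of -1.998 had an adjusted p of 0.0695 over 26486 probes, and shrank to -0.06 with the normexp background correction.

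Mcl1 codes for a short-lived protein that T cells need at nearly every stage. The log2 signal of its brighter probe was 1.54 and 1.65 in IL15ko, and 1.94, 1.91 and 1.70 in wild-type. The arrays of the groups were separated by 0.05 only. The difference was -0.26 ± 0.14 (SE), with a 95% confidence interval of -0.61 to 0.10 and an adjusted p of 0.298. The second Mcl1 probe read -1.31 and -0.71 in IL15ko, and -0.83, -0.80 and -0.95 in wild-type, so the IL15ko arrays stood on both sides of the wild-type range. Its difference was -0.15 (adjusted p over all probes 0.719).

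Bcl2a1c and Bcl2a1d belong to the A1 genes, which NF-kappaB induces in activated lymphocytes and which are near-identical copies in the mouse. A probe may bind more than one copy, so the values of the single genes are uncertain. Bcl2a1c read -0.60 and -1.11 in IL15ko, and -0.33, -0.25 and -0.37 in wild-type. The groups did not overlap, but the difference of -0.54 ± 0.19 (SE) did not pass (adjusted p = 0.15). Bcl2a1d read 2.84 and 2.65 in IL15ko, and 2.97, 2.92 and 2.74 in wild-type, with overlap between the groups. Its difference was -0.13 ± 0.14 (SE, adjusted p = 0.581), with a 95% confidence interval of -0.50 to 0.23.

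Bcl2l2 codes for Bcl-w and was the anti-apoptotic member whose values ran the other way. Its measured probe gave 46.3 and 19.4 intensity units in IL15ko, and 22.1, 25.8 and 37.4 in wild-type, dim but well above background on all 5 arrays. After scaling these became -4.87 and -4.50 in IL15ko, and -5.69, -5.10 and -5.71 in wild-type. The scaled groups were separated by 0.23, and the difference of 0.82 ± 0.25 (SE) had an adjusted p of 0.115. Its other probe cleared the background on no array.

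**Figure D2:**
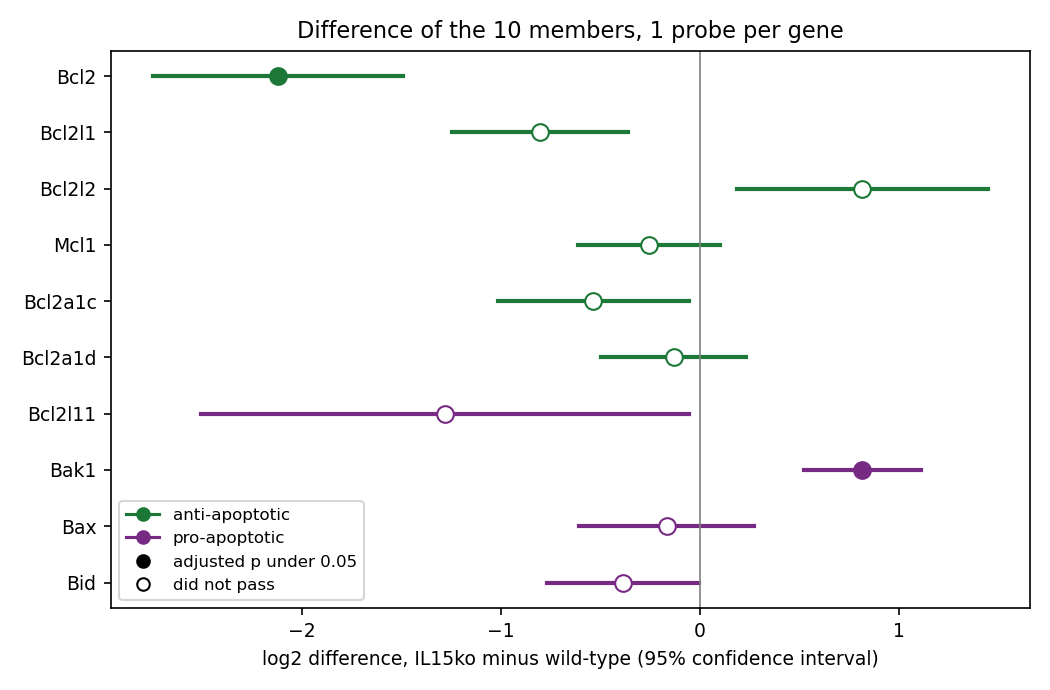
Log2 difference, IL15ko minus wild-type (horizontal axis), of the 10 members with 1 probe each, with limma's 95% confidence intervals as lines. Green marks anti-apoptotic and purple pro-apoptotic members. The filled points, Bcl2 at -2.12 and Bak1 at 0.81, had adjusted p-values under 0.05.

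Among the pro-apoptotic genes, Bak1 codes for an effector that sits in the outer mitochondrial membrane. It read 1.05 and 1.01 on IL15ko 1 and 2, and 0.21, 0.21 and 0.23 on wild-type 1, 2 and 3. The replicates of each group were nearly level, with SDs of 0.03 in IL15ko (n = 2) and 0.02 in wild-type (n = 3), and the groups were separated by 0.77. Bak1 rose by 0.81 ± 0.12 (SE) on the log2 scale, which is 1.76-fold (95% confidence interval 1.43 to 2.16, limma adjusted p = 0.0236). A difference of this size or larger was seen in 14.0% of the genes tested. Over all 26486 probes, 2.7% were called, 1.18% higher and 1.52% lower in IL15ko, and 1 of the 12 member probes tested. There Bak1 missed the threshold (adjusted p = 0.0578) and Bcl2 passed (adjusted p = 0.0365). The Bak1 call was also lost without wild-type 1 (adjusted p = 0.135), wild-type 2 (0.111), IL15ko 1 (0.0663) or IL15ko 2 (0.0888), while its difference lay between 0.79 and 0.84 without any 1 array.

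Bax codes for the other effector, which moves from the cytosol to mitochondria. Its values were 1.07 and 0.73 in IL15ko, and 0.92, 1.23 and 1.05 in wild-type. The groups overlapped, with a difference of -0.17 ± 0.17 (SE), a 95% confidence interval of -0.61 to 0.27 and an adjusted p of 0.562. The sign was not settled either, since without IL15ko 2 the difference was 0.0033. Bid codes for the BH3-only protein that caspase-8 cleaves. It read -1.57 and -1.56 in IL15ko, and -1.30, -1.25 and -0.98 in wild-type. Both IL15ko arrays were below all wild-type arrays, but the difference of -0.39 ± 0.15 (SE) did not pass (adjusted p = 0.18).

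Bcl2l11 codes for Bim, which binds all the anti-apoptotic members and is needed for the death of lymphocytes deprived of cytokines. Its probe gave 24.5 and 3.5 intensity units in IL15ko, and 27.9, 41.5 and 42.9 in wild-type. It cleared the background on 4 arrays and not on IL15ko 2. The log2 signals were -5.79 and -6.96 in IL15ko, and -5.35, -4.42 and -5.51 in wild-type. The difference of -1.28 ± 0.48 (SE) did not pass (adjusted p = 0.17). The background correction decided its size and sign. The difference was -0.30 from the authors' deposited table and 0.27 with normexp and an offset of 50, where the median of all genes stood at 0.22. No direction is therefore given for Bcl2l11.

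By count, 8 of the 10 members had groups that did not overlap, 2 with IL15ko higher and 6 with IL15ko lower. Leaving out Bcl2l11, for which no direction is given, it was 7 of 9, 2 with IL15ko higher and 5 with IL15ko lower. A lack of overlap was seen in 47.2% of all genes tested, 25.1% with IL15ko higher and 22.1% with IL15ko lower. The median difference was -0.40 over the 6 anti-apoptotic members, -0.28 over the 4 pro-apoptotic members and 0.01 over all genes tested. The pro-apoptotic median turned to 0.03 with the normexp correction, where the median of all genes was 0.22. Without Bcl2l11 it was -0.17, and 0.0033 with IL15ko 2 left out as well. The median absolute difference was 0.67 over the 10 members and 0.31 over all genes tested.

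The balance can also be read within each array, as the log2 signal of an anti-apoptotic minus that of a pro-apoptotic member. Scaling between arrays cancels in this difference. Its level depends on the probes and carries no meaning, so only its change between groups is read. The change still depends on which probe is used. For Bcl2l1 minus Bak1 it was -1.62 with the brighter Bcl2l1 probe and -2.22 with the mean over a gene's probes. For Bcl2 minus Bak1 the within-array difference was -2.64 and -1.88 in IL15ko, and 0.73, 0.80 and 0.48 in wild-type. This is a change of -2.93, so that the ratio of Bcl2 to Bak1 was 7.64-fold lower in IL15ko. Against Bax and Bid the Bcl2 difference changed by -1.95 and -1.73, in each case without overlap between the groups. Against Bcl2l11 it changed by -0.84, with overlap, and by 0.11 without IL15ko 1.

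Over the 24 pairs, 13 changes were below 0 and 11 above. The change against Bak1 was below 0 for 5 anti-apoptotic members, from -2.93 for Bcl2 through -1.62 for Bcl2l1, -1.35 for Bcl2a1c and -1.07 for Mcl1 to -0.95 for Bcl2a1d. For Bcl2l2 it was 0.00032. The changes against Bcl2l11 were above 0 for the 5 members other than Bcl2, with the limit on that probe given above. The pairs share members and are not independent, so they are a description with no test. With the normexp correction 19 of the 24 changes were below 0, and 16 were below 0 from the authors' deposited values.

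**Figure D3:**
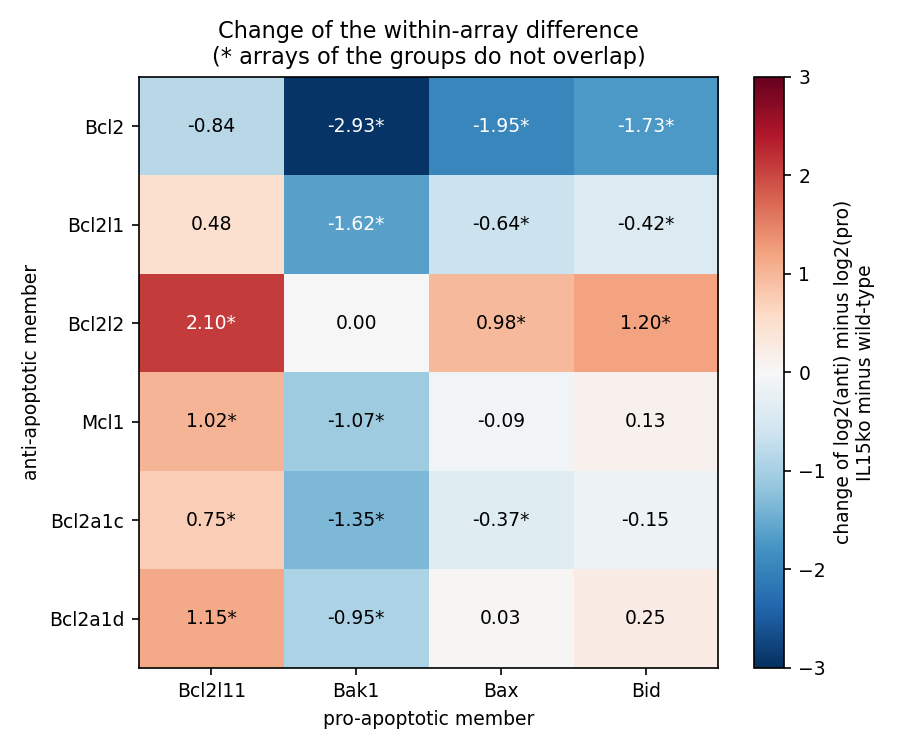
Change between groups (IL15ko minus wild-type) of the within-array difference, log2 signal of an anti-apoptotic member (rows) minus that of a pro-apoptotic member (columns). Blue is below 0 and red above, and an asterisk marks pairs whose arrays did not overlap between groups. The Bcl2 row runs from -2.93 to -0.84 and the Bcl2l2 row from 0.00 to 2.10.

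The start regions of the 2 called genes are shown because they moved in opposite directions. The windows are RefSeq's, 250 bases before to 50 after the annotated start, on GRCm38.p6, printed 5′ to 3′ on the gene's own strand. Capitals mark the GC box GGGCGG or its reverse complement. The Bcl2 window is chr1:106714241-106714540 and that of Bak1 chr17:27028578-27028877, both on the minus strand.
Bcl2: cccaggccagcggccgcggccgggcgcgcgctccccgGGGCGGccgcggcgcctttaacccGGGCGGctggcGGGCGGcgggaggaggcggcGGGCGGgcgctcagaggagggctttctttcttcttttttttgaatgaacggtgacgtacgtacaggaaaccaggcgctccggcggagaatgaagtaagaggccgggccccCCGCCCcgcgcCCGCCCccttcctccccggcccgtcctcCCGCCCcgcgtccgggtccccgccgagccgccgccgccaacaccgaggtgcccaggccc
Bak1: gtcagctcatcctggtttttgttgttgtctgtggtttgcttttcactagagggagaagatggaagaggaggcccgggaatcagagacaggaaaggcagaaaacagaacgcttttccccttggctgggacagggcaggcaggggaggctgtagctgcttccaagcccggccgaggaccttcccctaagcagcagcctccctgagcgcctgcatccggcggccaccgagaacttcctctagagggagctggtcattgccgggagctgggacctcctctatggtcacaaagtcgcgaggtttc
The Bcl2 window held 7 GC boxes, 44 CpG dinucleotides and a GC content of 76.0%, and that of Bak1 held 0 GC boxes, 11 CpG dinucleotides and a GC content of 58.3%. All 10 members matched the table, with 13 windows in all. A GC box was found in 9 of these 13 and in 35.7% of all 32851 windows. The STAT motif TTCNNNGAA was in 0 of the 13 and in 8.3% of all windows. The FOXO motif GTAAACA, searched on both strands like the others, was in 1 of the 13, a Bcl2l11 window, and in 3.65% of all windows. The TATA motif TATAAA was in 0 of the 13 and in 13.6% of all windows. A match is a description of letters in this window, and a missing match says nothing of the factor.

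The rest of the family was not called. Of 16 other family genes listed, 14 had a named probe and 10 were tested, with 0 called higher and 0 lower by limma. The share called over all genes tested was 7.31%, so with so few genes this count is not a result about the family. Among pro-apoptotic BH3-only genes, Bik had a difference of 0.56 ± 0.16 (SE, adjusted p = 0.099), with IL15ko arrays at -3.22 and -3.58 above wild-type arrays between -4.00 and -3.89. Bmf, a BH3-only gene tied to the cytoskeleton, had one of -0.81 ± 0.38 (adjusted p = 0.241). Bbc3 (Puma), a p53 target, had one of -0.52 ± 0.28 (adjusted p = 0.291), and Bad, which growth-factor kinases phosphorylate, one of 0.22 ± 0.16 (adjusted p = 0.42). Pmaip1 (Noxa), a partner of Mcl1, read 0.24 ± 0.28 (adjusted p = 0.608). Of the genes with mixed roles, Bcl2l14 came closest, with a difference of 1.27 ± 0.26 (adjusted p = 0.0509), but its probe was well above background on 2 arrays only. Bnip3, a gene of mitochondrial turnover, had one of -0.56 ± 0.15 (adjusted p = 0.0919). Bok, Hrk, Bcl2l10 and Bcl2l15 were at background throughout, and the A1 copies Bcl2a1a and Bcl2a1b had no probe matched.

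Genes that act after the mitochondrial membrane opens did not pass either. All 14 listed were tested, and 0 were called higher and 0 lower by limma, with a median difference of 0.02. Beside the 7.31% called over all genes tested, 0 of 14 is not a result about this list. Birc5 (survivin), which also serves in mitosis, had a difference of 0.78 ± 0.32 (adjusted p = 0.191), and the inhibitor-of-apoptosis gene Birc3 one of -0.34 ± 0.17 (adjusted p = 0.273). Apaf1, the scaffold of the apoptosome, had a difference of 0.06 and Cycs, which codes for cytochrome c, one of -0.03.

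Of 16 regulators listed, all were tested, 2 were called higher and 0 lower, against 3.73% and 3.58% of all genes tested. The 2 called were Myb, a transcription factor able to activate Bcl2 (1.69 ± 0.13, adjusted p = 0.00873), and Foxo1, a factor restrained by growth signals (0.69 ± 0.14, adjusted p = 0.0479). Myb read 0.54 and 0.67 in IL15ko, and -0.97, -1.13 and -1.14 in wild-type, and so ran opposite to Bcl2. Trp53 (p53), a known activator of several death genes, had a difference of 1.30 ± 0.29 (adjusted p = 0.0645), and Rela, an NF-kappaB subunit, one of -0.48 ± 0.14 (adjusted p = 0.103). Stat5a and Stat5b, the factors that IL-15 activates, had differences of 0.31 (adjusted p = 0.262) and 0.17 (adjusted p = 0.482).

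Of the 8 receptor and JAK genes, 0 were called higher and 1 lower. It was Il4ra, the IL-4 receptor chain (-1.59 ± 0.23, adjusted p = 0.0237). Il2rb, the signalling chain of the IL-15 receptor, read 1.66 and 2.60 in IL15ko, and 3.85, 3.86 and 3.36 in wild-type. Its difference of -1.56 ± 0.33 missed the threshold (adjusted p = 0.0549). Jak3, the kinase bound to the common gamma chain, had one of 0.54 ± 0.12 (adjusted p = 0.0627) and Il2rg, the gamma chain itself, one of 0.46 ± 0.21 (adjusted p = 0.233). Il7r, the receptor chain for another survival cytokine, had one of -0.06 (adjusted p = 0.813).

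**Figure D4:**
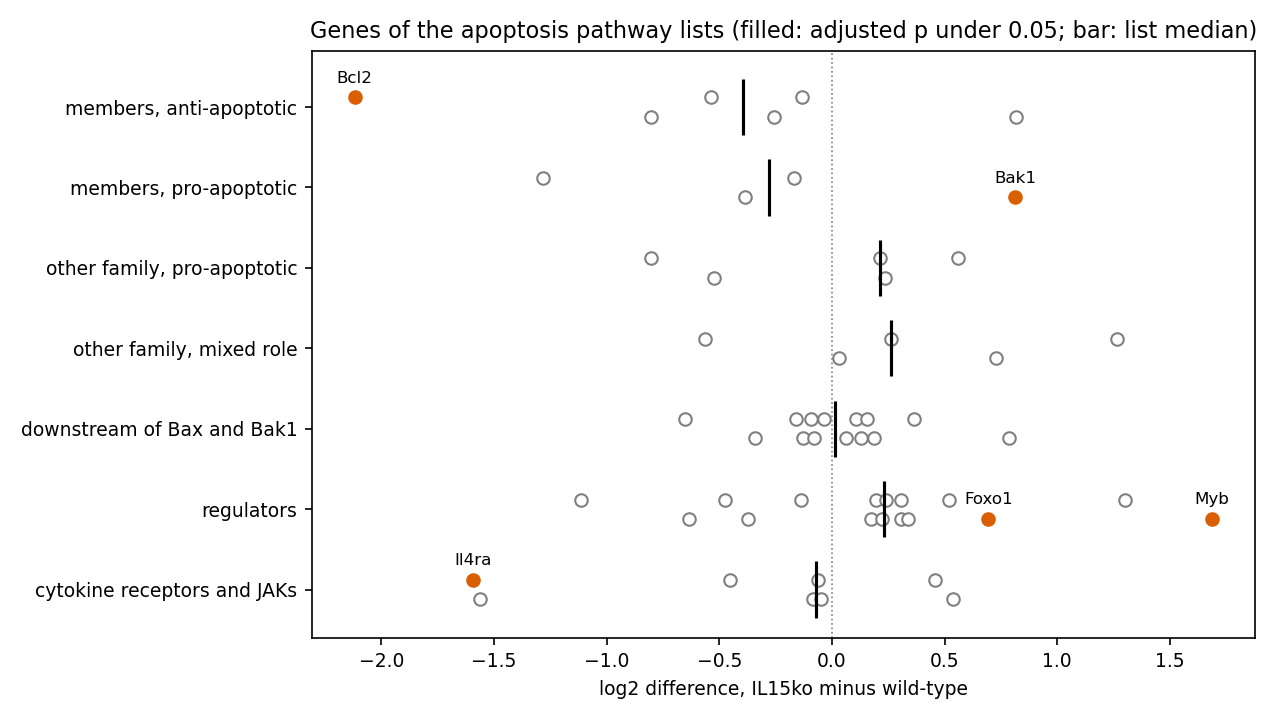
Log2 difference, IL15ko minus wild-type (horizontal axis), of each tested gene in 7 lists, with the list median as a black bar and genes with an adjusted p under 0.05 filled and named. Bcl2, Bak1, Il4ra, Foxo1 and Myb are filled, and the 14 genes downstream of Bax and Bak1 centre on 0.02.

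Other genes with profiles like that of Bcl2 were found by the Euclidean distance between log2 profiles over the 5 arrays, each centred on its own mean, among 9758 genes well above background on all arrays. The nearest were Txnip, which codes for a thioredoxin-binding protein (distance 0.11), Cables1, a cyclin-dependent kinase binding gene (0.17), the cytotoxic granule gene Nkg7 (0.20) and the interferon-gamma receptor gene Ifngr1 (0.21). Txnip read -2.50 and -1.75 in IL15ko, and -0.01, 0.05 and -0.11 in wild-type. Nearest to Bak1 were Pfkm, a glycolytic phosphofructokinase (0.060), Ap3s1, an adaptor subunit of vesicle transport (0.089), Igf2r (0.092) and Tipin, a replication-fork gene (0.10). Likeness over 5 arrays rests largely on the group difference.

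Markers of NKT subsets also differed between the groups, some lower in IL15ko as Bcl2 was and others higher. The 6 listed genes of the NKT lineage summed to 11.1 to 12.6 in IL15ko and 4.84 to 5.29 in wild-type. Of these, 2 were called higher, Zbtb16 and Slamf6, and Slamf1, Sh2d1a, Fyn and Egr2 did not pass. Zbtb16 was the brightest in both groups and weighs most in the sum. Of 6 listed genes of the interferon-gamma-producing NKT1 subset, 5 were called lower, Tbx21, Ifng, Klrb1c, Xcl1 and Ccl5. The other was Il2rb, described above, which did not pass. The summed signal of the 6 was 6.72 to 11.6 in IL15ko and 36.4 to 38.8 in wild-type. Of 6 NKT2 genes 4 were called higher, with sums of 9.36 to 11.6 in IL15ko and 5.66 to 6.47 in wild-type. All 4 tested NKT17 genes were called higher, with sums over the 6 listed of 2.63 to 2.99 in IL15ko and 0.759 to 1.12 in wild-type, and Il17f was at background throughout. The listed NK-cell genes summed to 2.68 to 3.55 in IL15ko and 14.7 to 16.1 in wild-type, with 4 of 5 tested genes called lower. The 4 were Klra8, Klre1, Klra4 and Klri2, with Klra8 the brightest, while Nfil3 did not pass. Ncr1 was at background throughout and Eomes was not tested. Which cells carried these transcripts was not tested. Markers of double-positive thymocytes summed to 2.95 to 3.52 in IL15ko and 1.81 to 2.33 in wild-type, but 0 of 3 tested were called by limma. Cd4, the brightest of the 3, had a difference of 0.87 (adjusted p = 0.0535), with Dntt at 0.08 and Cd1d1 at -0.16. Rag1, Rag2, Ptcra, Cd8a and Cd8b1 were not well above background in any sample. B-cell markers summed to 0.176 to 0.268 in IL15ko and 0.142 to 0.215 in wild-type, and Ms4a1, Cd79a and Pax5 were at background throughout. Myeloid markers summed to 4.58 to 10.6 in IL15ko and 4.10 to 5.92 in wild-type, with Lyz2 and Fcgr1 at background throughout. The 2 tested ran in opposite directions, and 0 were called by limma. Itgam, the brighter, had a difference of 0.70 (adjusted p = 0.313) and Csf1r one of -2.29 (adjusted p = 0.0513). Thymic epithelial markers summed to 0.029 to 0.059 in IL15ko and 0.028 to 0.086 in wild-type. The part of subset composition in the Bcl2 and Bak1 differences was not tested.

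**Figure D5:**
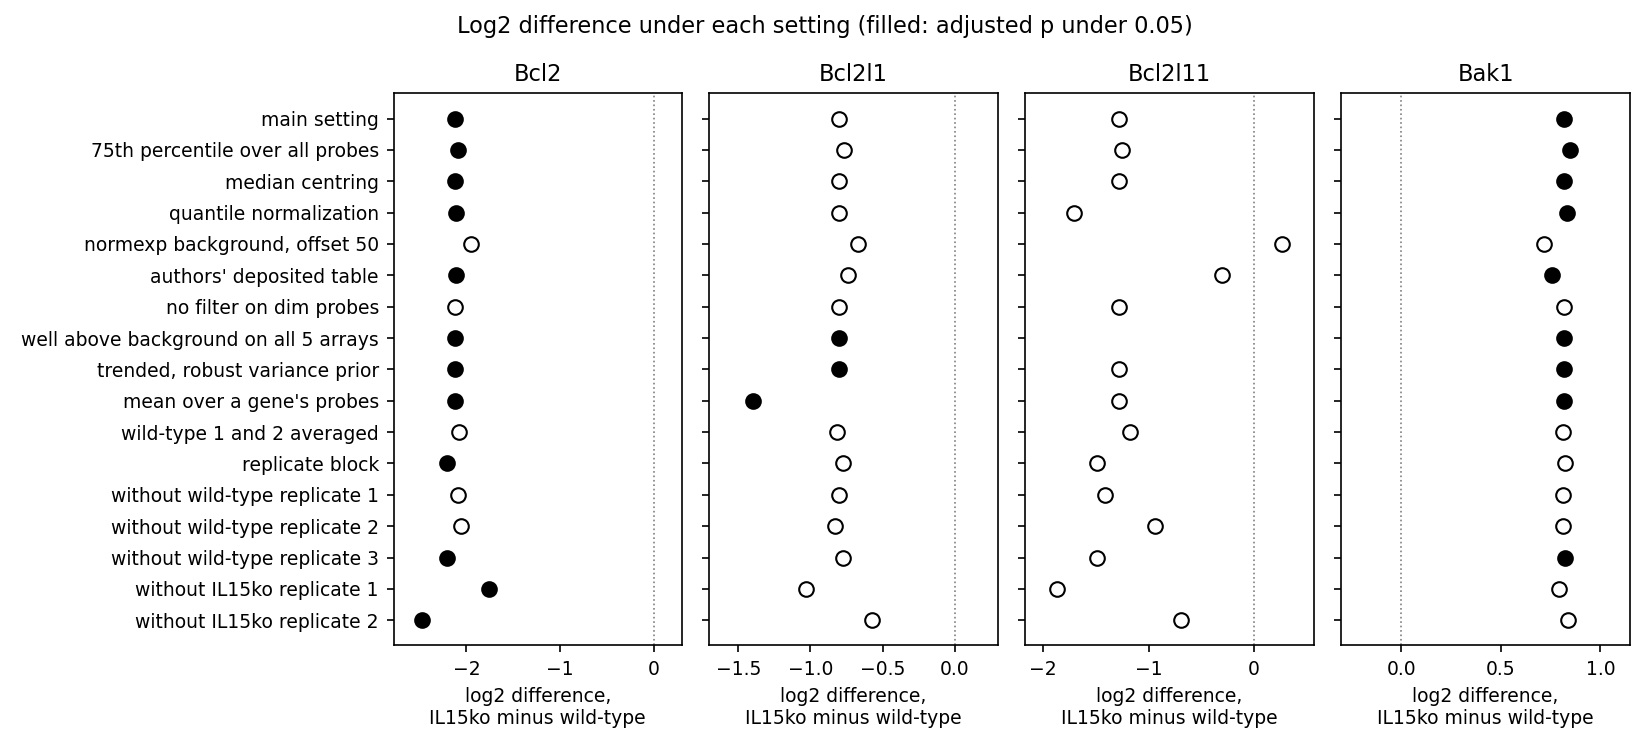
Log2 difference, IL15ko minus wild-type (horizontal axes, scaled per panel), of Bcl2, Bcl2l1, Bcl2l11 and Bak1 in the main setting and in each alternative (rows), filled where the adjusted p was under 0.05. Bcl2 was filled in 11 of 16 alternatives and Bak1 in 8 of 16, and Bcl2l11 crossed 0 with the normexp background correction.

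The plot of settings shows what held for the called members. Bcl2 lay between -2.48 and -1.76 over the 16 alternatives and Bak1 between 0.72 and 0.85, with no change of sign in either. Some alternatives could not move these differences. Changing the filter on dim probes or the variance prior leaves them at -2.12 and 0.81. Averaging probes does the same, since each of these genes has 1 probe. With the replicate block they equal those without wild-type 3. The Bcl2 and Bak1 calls were both lost with the normexp correction, without the filter on dim probes and when the mean of wild-type 1 and 2 counted as 1 sample. The dim probes, those of Bcl2l11 and Bcl2l2 and the second probe of Bcl2l1, gave at most 100.7 intensity units on every array.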

How the data were processed

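RNA of thymic NKT cells was hybridised to 1-colour Agilent arrays, 2 of IL15ko and 3 of wild-type, all on 1 slide. Agilent Feature Extraction 10.7.1.1 (protocol GE1_107_Sep09) made the deposited intensity values, background-subtracted but not scaled between arrays, per the file headers. The authors' deposited table of intensity values equals, by comparison with the scanner values, the median minus the background median plus a constant for each array. Signals were divided by the array's 75th percentile over 18529 probes that cleared the background on every array and taken as log2. No spot was saturated.

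Gene names came from the RefSeq transcript of each probe, matched to RefSeq's gene table. Of 55681 probes, 26425 had 1 symbol, 0 several and 29256 none. The probe with the highest mean stood for a gene, and a gene was tested if that probe cleared the background on 2 arrays or more, with limma 3.58.1 in R 4.3.3 (lmFit and eBayes, Benjamini-Hochberg adjusted p under 0.05). The test has 3 residual degrees of freedom, and the number of arrays limits precision. An exact permutation test of 2 against 3 arrays cannot go below p = 0.1. A fit over all probes and 16 alternatives were also run, and the method was tested on simulated data. For normexp the median signal was used, since no mean signal column was in the scanner files used here.

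All members are described. For other lists the text names genes that passed or had the smallest p-values, and for profiles the 4 nearest genes. A few listed genes are not reported here by name. Members and lists were chosen with earlier results of these data known. Replicate numbers 1 and 2 share no source in the labels.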

Additional observations from a re-analysis of the deposited data

How the results depend on the processing

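Over 16 alternatives Bcl2 stayed below 0 and Bak1 above 0, though some of these settings could not move either difference. With normexp, 0 genes were called higher and 1 lower, 0 members either way, and 0 member probes lower by limma. There Bcl2 was at -1.95 (adjusted p = 0.0572), Bak1 at 0.72 (adjusted p = 0.103) and Bcl2l11 reversed to 0.27 (adjusted p = 0.728). With no filter, over 20022 genes, 0 were called higher and 5 lower, with 0 members and 0 member probes, Bcl2 at -2.12 (adjusted p = 0.118) and Bak1 at 0.81 (adjusted p = 0.153). With genes above background on all 5 arrays 702 were called higher, and with a trended, robust prior 809 higher and 686 lower. In both, 2 members were called lower, Bcl2l1 passed at -0.80 (adjusted p = 0.0341 and 0.0148) and 1 member probe was called higher. The trended prior called 3 member probes lower. Averaging a gene's probes called 2 members lower, with Bcl2l1 at -1.40 (adjusted p = 0.0432). With wild-type 1 and 2 averaged, chosen because these arrays lie close together, 26 genes were called higher and 53 lower, with 0 members and 0 member probes, Bcl2 at -2.07 (adjusted p = 0.0718) and Bak1 at 0.81 (adjusted p = 0.115).

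With the replicate block, 130 genes were called higher and 230 lower, 0 members higher and 0 member probes lower. Bak1 was at 0.82 (adjusted p = 0.0773) and Bcl2 passed at -2.20 (adjusted p = 0.0428). Wild-type 3 has no IL15ko array of the same number, so these differences equal those without wild-type 3. Deviations of same-numbered arrays correlated at -0.13 for number 1 and 0.19 for number 2, and the labels give no shared source, so the numbers were not used to pair arrays. With 2 pairs this check does not settle whether they pair.

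Leaving out 1 array gave 1 to 355 genes called higher and 8 to 393 lower, the lowest of both without wild-type 1. Members called higher ranged from 0 to 1, members called lower from 0 to 1 and member probes called lower from 0 to 0. Bcl2 ranged from -2.48 to -1.76, Bak1 from 0.79 to 0.84, Bax from -0.34 to 0.0033 and the second Mcl1 probe from -0.45 to 0.15. The signs of Bax (0.0033 without IL15ko 2) and of the second Mcl1 probe (0.15 without IL15ko 1) reversed. The cause of these changes was not tested, apart from fewer samples or more genes where the setting makes them so. The slide as a block was not run, since all arrays share 1 slide. On it the wild-type arrays were at positions 1_1, 1_2 and 1_3 and the IL15ko arrays at 1_4 and 2_1. Position on the slide and genotype therefore cannot be told apart. Signal over background limits Bcl2l11, Bcl2l2 and the second Bcl2l1 probe.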
